A study of Mus musculus with 68 samples.

Results

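The 8 genes Gclc, Gclm, Slc7a11, Srxn1, Txnrd1, Nqo1, Hmox1 and Osgin1 are core targets of the transcription factor NRF2, and were taken by their symbols from the 23893 rows of a lung RNA-seq table of counts. The libraries came from male wild-type mice, bought from one supplier, that breathed 1,3-butadiene (BD) or clean air for 6 h on each weekday over 2 weeks. The groups were CAST/EiJ BD (6 libraries, of which 1 is shown apart), CAST/EiJ clean air (7), C57BL/6J BD (6) and C57BL/6J clean air (5). CAST/EiJ is an inbred strain derived from wild Mus musculus castaneus, C57BL/6J is the standard laboratory strain and the source of the mouse reference genome, and BD is a gas that the body turns into DNA-reactive epoxides. All 8 genes were listed and passed the filter on low counts, and the smallest count of any of them in any library was 88.

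NRF2, encoded by Nfe2l2, is held in the cytoplasm and sent for degradation by KEAP1. Oxidants and electrophiles modify KEAP1, after which NRF2 accumulates, pairs with a small MAF protein and binds antioxidant response elements. Its targets make glutathione, keep thioredoxin reduced and take up cystine, and glutathione conjugation is a known route of BD epoxide disposal. Gclc and Gclm encode the catalytic and the modifier subunit of glutamate-cysteine ligase, the rate-limiting enzyme of glutathione synthesis, and Slc7a11 encodes the cystine importer xCT. Srxn1 (sulfiredoxin) repairs over-oxidised peroxiredoxins and Txnrd1 (thioredoxin reductase 1) reduces thioredoxin. Nqo1 reduces quinones, Hmox1 (haem oxygenase 1) breaks down haem, and Osgin1 encodes an oxidative stress-induced growth inhibitor.

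Promoter windows of RefSeq (build GRCm38.p6, 250 bases before to 50 bases after a gene's start) were at hand for 6 of the 8 genes, and 4 are shown because each holds a letter match discussed here. Capitals mark the antioxidant response element core TGACNNNGC (or its reverse complement) and the AP-1 motif TGANTCA, searched on both strands. The antioxidant core was present in 3 of the 6 genes, against 12.4% of 32851 windows and 14% of 27025 genes in the table. In Gclm it began at position -134 from the start on the minus strand, in Txnrd1 at -92 and in Srxn1 at 29. The AP-1 letters were at -102 and -45 in Srxn1 and at -97 in Osgin1, against 7.81% of all windows. The stricter form TGACTCAGC, which contains an AP-1 match, was in none of the windows of these genes and in 0.454% of all windows. It fixes C where the AP-1 motif allows any letter. The form with G there, TGAGTCAGC, lies at the -45 match of Srxn1 and, on the minus strand, at the Osgin1 match. That form was not counted over all windows. A match describes letters in this reference window and says nothing about binding. The windows run 5′ to 3′ on the strand of the gene.
Srxn1 (chr2:152105274-152105573, plus strand): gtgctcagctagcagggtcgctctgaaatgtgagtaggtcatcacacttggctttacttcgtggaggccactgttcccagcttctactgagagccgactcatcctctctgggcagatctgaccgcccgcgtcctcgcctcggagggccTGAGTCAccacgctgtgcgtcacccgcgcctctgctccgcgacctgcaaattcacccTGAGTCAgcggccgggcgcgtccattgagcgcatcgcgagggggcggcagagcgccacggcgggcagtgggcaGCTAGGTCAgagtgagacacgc
Gclm (chr3:122245307-122245606, plus strand): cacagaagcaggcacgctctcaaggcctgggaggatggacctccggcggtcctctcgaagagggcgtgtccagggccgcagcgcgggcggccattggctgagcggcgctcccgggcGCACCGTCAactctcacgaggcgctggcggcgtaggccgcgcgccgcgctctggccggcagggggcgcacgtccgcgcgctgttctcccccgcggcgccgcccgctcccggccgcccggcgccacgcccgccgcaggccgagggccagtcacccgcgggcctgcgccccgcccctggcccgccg
Txnrd1, 2nd window (chr10:82858956-82859255, plus strand): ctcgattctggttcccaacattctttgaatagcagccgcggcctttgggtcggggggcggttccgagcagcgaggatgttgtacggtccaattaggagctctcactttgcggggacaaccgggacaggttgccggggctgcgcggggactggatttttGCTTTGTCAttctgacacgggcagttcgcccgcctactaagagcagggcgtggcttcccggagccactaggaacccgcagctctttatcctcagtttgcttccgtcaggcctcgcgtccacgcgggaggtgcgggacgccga
Osgin1 (chr8:119436897-119437196, plus strand): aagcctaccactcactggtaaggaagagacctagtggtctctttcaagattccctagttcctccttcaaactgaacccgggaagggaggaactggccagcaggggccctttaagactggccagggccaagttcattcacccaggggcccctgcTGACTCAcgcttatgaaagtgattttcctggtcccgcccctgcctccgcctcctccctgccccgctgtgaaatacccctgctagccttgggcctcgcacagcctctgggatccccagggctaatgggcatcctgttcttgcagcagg

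Libraries held between 10601756 and 50001571 counts. A library with title number 8, labelled as CAST/EiJ under BD (replicate 5), went against its strain label. On an index of 2181 genes, where clean-air C57BL/6J averaged 0 and clean-air CAST/EiJ 1, it stood at 0.113. The rest of its labelled group stood at 0.890 to 0.974, and C57BL/6J libraries between -0.0697 and 0.169. It is left out of the means and tests below, which used 23 libraries, and its values are given on their own. Title numbers over 100 were carried by 5 of 7 CAST/EiJ and 1 of 5 C57BL/6J clean-air libraries and by no BD library, and the labels do not say what they mark. Lung marker genes were present in every group, with summed alveolar type 2 markers at 13366 CPM (counts scaled to 1e+06 per library) or more in every library. Summed basal and squamous markers varied widely within every group. They ranged from 5.05 to 2213 CPM in CAST/EiJ BD and 11.8 to 2048 in CAST/EiJ clean air. In C57BL/6J they ranged from 3.71 to 1105 under BD and 3.40 to 1550 in clean air. The mean log2 CPM of these markers in each library entered an alternative fit as a covariate. Summed hepatocyte markers ranged from 26.2 to 89.0 CPM in CAST/EiJ BD and 7.21 to 1355 in CAST/EiJ clean air. In C57BL/6J they ranged from 5.41 to 112 under BD and 20.1 to 366 in clean air. Summed cardiac muscle markers ranged from 276 to 2725 CPM in CAST/EiJ BD and 588 to 2491 in CAST/EiJ clean air. In C57BL/6J they ranged from 438 to 1286 under BD and 587 to 1807 in clean air. The part of such tissue was not tested. In whole lung, fewer cells of a type and less RNA per cell cannot be told apart.

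All 8 genes rose under BD in CAST/EiJ and 7 of 8 rose in C57BL/6J. The exception was Hmox1 in C57BL/6J, at 1.40-fold with an adjusted p of 0.0603. Genes were called at an adjusted p (Benjamini-Hochberg over the 17377 genes tested, edgeR quasi-likelihood test) under 0.05. Across all genes tested 3.86% were called higher under BD in CAST/EiJ and 4.2% in C57BL/6J. The members' median log2 fold, BD over clean air, was 1.36 in CAST/EiJ (all genes -0.018) and 0.98 in C57BL/6J (all genes -0.0024). Every BD library was above every clean-air library for 6 of 8 genes in CAST/EiJ, where 1.23% of all genes were so separated, and for 6 of 8 in C57BL/6J, where 3.79% were. The overlapping genes were Gclm and Hmox1 in CAST/EiJ and Slc7a11 and Hmox1 in C57BL/6J. Levels are CPM scaled by TMM factors and given as mean ± SD, and are not compared between genes.

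**Figure D1:**
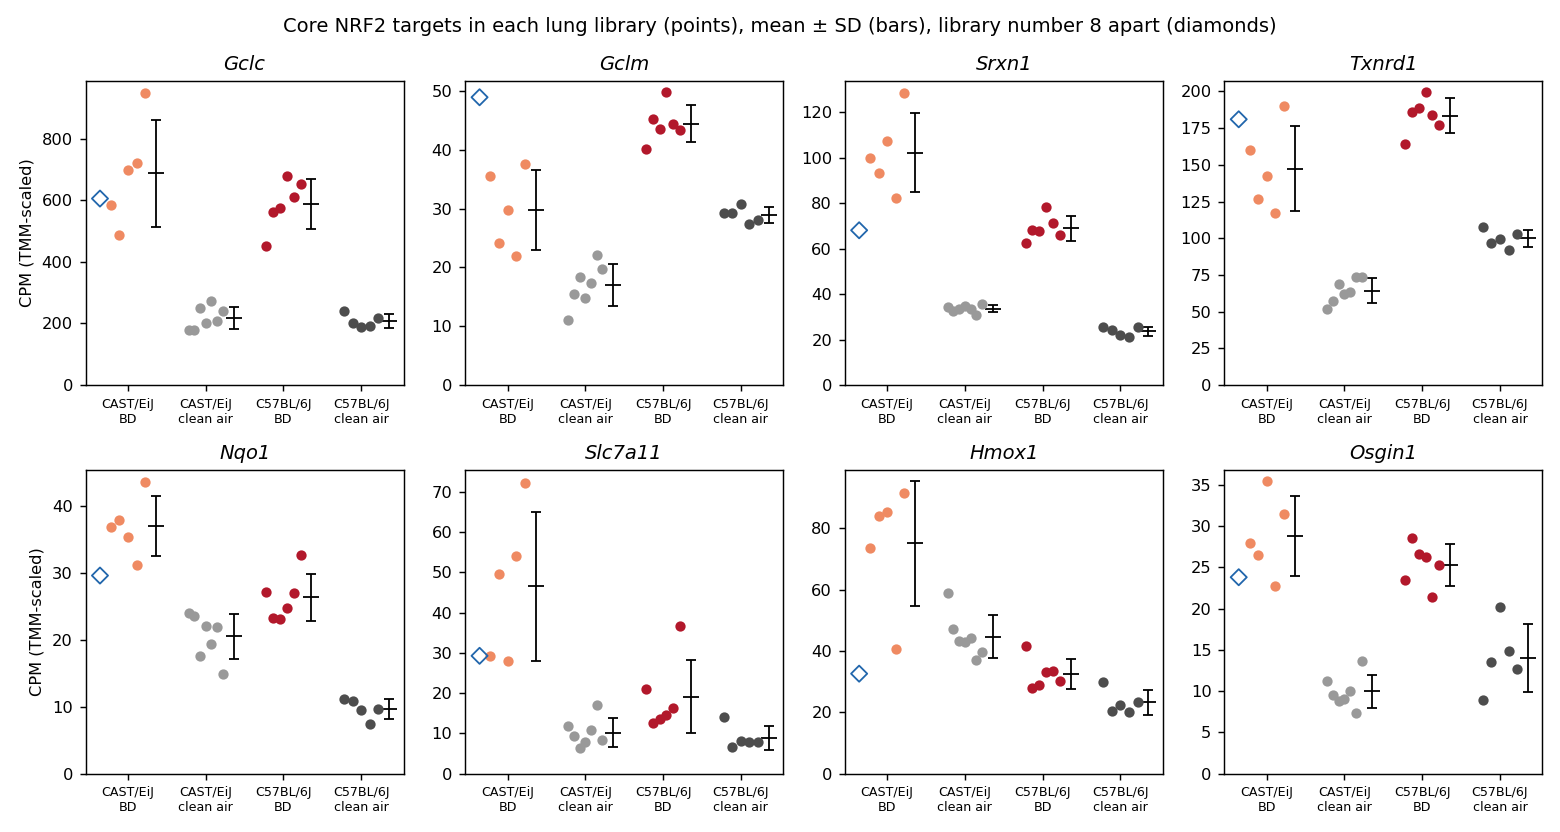
Level of each core NRF2 target (CPM, linear axis from 0) in every lung library, with groups in the order CAST/EiJ BD, CAST/EiJ clean air, C57BL/6J BD and C57BL/6J clean air. Points are libraries, bars beside them mean ± SD (n = 5, 7, 6 and 5), and the open diamond in the CAST/EiJ BD column is library number 8, which is outside the mean. Gclc, Srxn1, Txnrd1, Nqo1 and Osgin1 show no overlap between BD and clean air in either strain.

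Among the genes of glutathione supply, Gclc, the catalytic subunit, reached 586, 487, 698, 723 and 949 CPM in the CAST/EiJ BD libraries, against 178 to 273 CPM (median 207) in CAST/EiJ clean air. In C57BL/6J BD it ran between 451 and 679.5 CPM (median 593), against 241, 202, 189, 190.4 and 219 CPM in C57BL/6J clean air. The lowest BD library in each strain thus lay well above the highest clean-air library. The fold was 3.16 in CAST/EiJ (log2 1.66, SE 0.14, adjusted p = 7.34e-08) and 2.83 in C57BL/6J (log2 1.499, SE 0.15, adjusted p = 1.61e-06). Ranked by p, Gclc was the 2nd gene of all in CAST/EiJ and the 4th in C57BL/6J. The strains did not differ in clean air (218 ± 36.8 CPM in CAST/EiJ, n = 7, and 208 ± 21.7 CPM in C57BL/6J, n = 5) beyond their spread (log2 0.07, 95% interval -0.22 to 0.35, adjusted p = 0.692). Nor was a strain difference called under BD (689 ± 174 CPM, n = 5, and 589 ± 81.0 CPM, n = 6; the log2 difference was 0.23, interval -0.06 to 0.52, adjusted p = 0.204).

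Gclm, the modifier subunit, moved less than the catalytic subunit in fold. It had 35.6, 24.1, 29.8, 21.97 and 37.6 CPM in CAST/EiJ BD, against 11.03 to 22.2 CPM (median 17.3) in CAST/EiJ clean air. C57BL/6J BD libraries held 40.2 to 49.8 CPM (median 44.0), against 29.2, 29.3, 30.8, 27.3 and 28.1 CPM in C57BL/6J clean air. In CAST/EiJ 1 BD library, replicate 4, fell below the highest clean-air library, while C57BL/6J groups were apart. The fold was 1.75 in CAST/EiJ (log2 0.81, SE 0.13, adjusted p = 0.00178) and 1.54 in C57BL/6J (log2 0.62, SE 0.14, adjusted p = 0.00566). Without title numbers over 100 the CAST/EiJ value was log2 0.50 with an adjusted p of 0.120, with 2 clean-air libraries left in that strain; with the title-number split as a covariate it was log2 0.62 with an adjusted p of 0.0460. CAST/EiJ levels were lower than C57BL/6J levels in both exposures, and Gclm in BD-exposed CAST/EiJ (29.8 ± 6.83 CPM, n = 5) was not told apart from clean-air C57BL/6J (28.9 ± 1.30 CPM, n = 5; log2 0.04, interval -0.26 to 0.33, adjusted p = 0.841).

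Slc7a11, the cystine importer, had the largest fold of the 8 in CAST/EiJ and the widest spread between libraries. It was at 29.2, 49.5, 27.9, 54.0 and 72.2 CPM in CAST/EiJ BD, against 6.30 to 16.99 CPM (median 9.32) in CAST/EiJ clean air, with no overlap. In C57BL/6J BD it was at 12.5 to 36.7 CPM (median 15.4), against 14.2, 6.60, 8.08, 8.001 and 7.97 CPM in C57BL/6J clean air. Clean-air replicate 1 of C57BL/6J reached into the BD range, and BD replicate 6 stood far above the other 5 BD libraries. The fold was 4.57 in CAST/EiJ (log2 2.19, SE 0.30, adjusted p = 0.000287) and 2.11 in C57BL/6J (log2 1.07, SE 0.32, adjusted p = 0.0323). The C57BL/6J call was lost without C57BL/6J clean-air replicate 2, 3, 4 or 5 or BD replicate 1 or 6 (adjusted p = 0.0505 to 0.0856), and with limma-voom (0.0737). Without BD replicate 6 its log2 fold was 0.78. The summed squamous markers were 1550 CPM in C57BL/6J clean-air replicate 1, 5.80 CPM in BD replicate 6 and 488 CPM in CAST/EiJ BD replicate 6, the library with the highest Slc7a11.

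Among the thioredoxin genes, Srxn1 (sulfiredoxin) was the gene with the smallest p of all 17377 in each strain. Its level was 99.9, 93.1, 107, 82.3 and 128 CPM in CAST/EiJ BD, against 30.8 to 35.6 CPM (median 33.4) in CAST/EiJ clean air. C57BL/6J BD libraries had 62.3 to 78.4 CPM (median 67.8), against 25.5, 24.3, 21.9, 21.2 and 25.5 CPM in C57BL/6J clean air. The 4 groups did not overlap at all and stood in 4 tiers, each neighbour differing from the next. The fold was 3.04 in CAST/EiJ (log2 1.61, SE 0.08, adjusted p = 8.25e-12) and 2.91 in C57BL/6J (log2 1.54, SE 0.09, adjusted p = 1.34e-10). The ratio of these folds was 1.05 (log2 0.06, interval -0.18 to 0.31). Its promoter window, shown above, holds both AP-1 matches and the antioxidant core.

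Txnrd1 (thioredoxin reductase 1) was at 160.4, 126.5, 143, 118 and 190.3 CPM in CAST/EiJ BD, against 51.5 to 73.8 CPM (median 63.4) in CAST/EiJ clean air. In C57BL/6J BD it was at 164 to 199.7 CPM (median 185), against 108, 96.7, 99.6, 92.1 and 103.2 CPM in C57BL/6J clean air. BD and clean-air libraries did not overlap in either strain. The fold was 2.29 in CAST/EiJ (log2 1.20, SE 0.10, adjusted p = 7.34e-08) and 1.84 in C57BL/6J (log2 0.88, SE 0.10, adjusted p = 1.67e-05). In CPM the step from clean air to BD was 83.1 in CAST/EiJ (SE 13.3) and 83.5 in C57BL/6J (SE 5.53), which differ by less than either SE. CAST/EiJ was the lower strain in clean air (64.3 ± 8.34 CPM, n = 7, and 99.8 ± 5.96 CPM, n = 5; log2 -0.63, adjusted p = 8.05e-06). It was also lower under BD (147 ± 29.0 CPM, n = 5, and 183 ± 11.9 CPM, n = 6; log2 -0.32, adjusted p = 0.0153), a call lost without CAST/EiJ BD replicate 2, 3 or 4 (adjusted p = 0.0510 to 0.0593) and with the squamous marker level as a covariate (0.0525). The Txnrd1 window above with the antioxidant core is the 2nd of 3 that RefSeq starts give, and the other two hold no match.

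**Figure D2:**
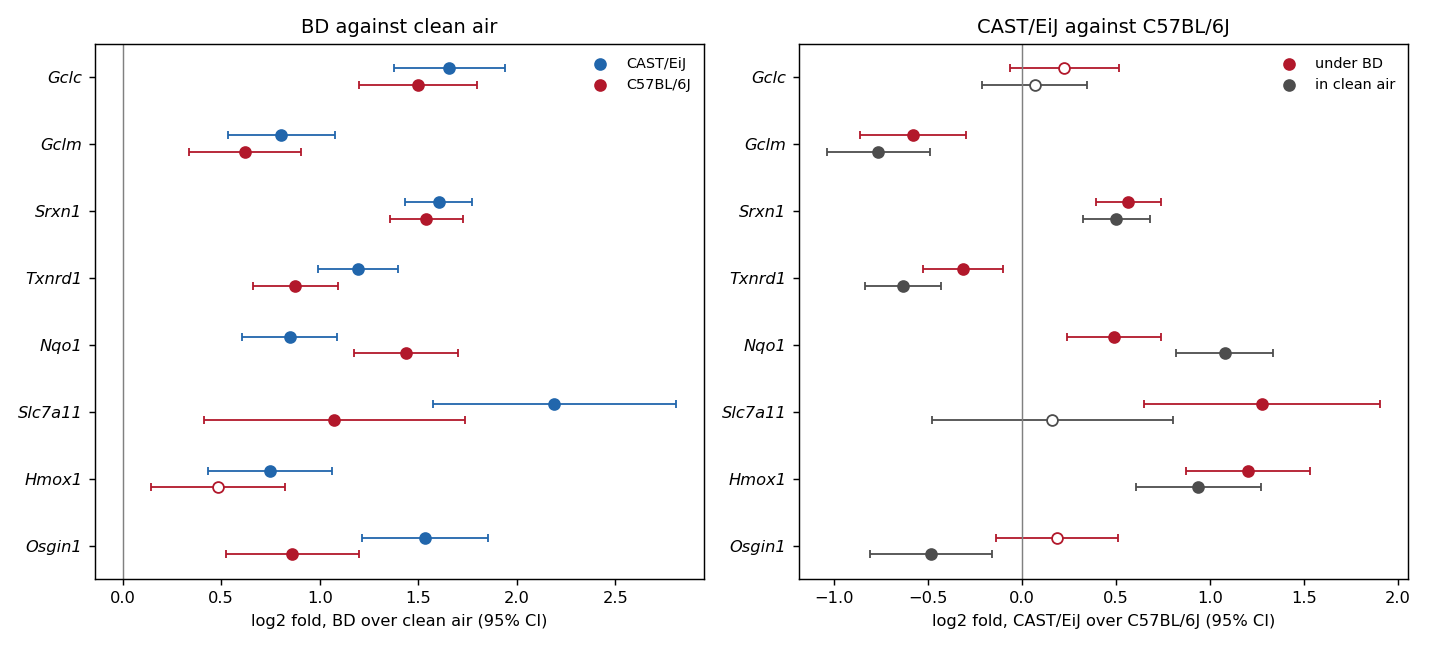
Left, log2 fold of each gene, BD over clean air, in CAST/EiJ (blue) and C57BL/6J (red); right, log2 fold of CAST/EiJ over C57BL/6J under BD (red) and in clean air (grey). Circles are fitted values, bars 95% confidence intervals, and filled circles passed an adjusted p of 0.05. Hmox1 in C57BL/6J (1.40-fold) is the open circle on the left, and on the right Gclm and Txnrd1 lie below 0 while Srxn1, Nqo1 and Hmox1 lie above 0 in both exposures.

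Nqo1, the quinone reductase, had 36.7, 37.9, 35.3, 31.1 and 43.6 CPM in CAST/EiJ BD, against 14.9 to 24.003 CPM (median 21.9) in CAST/EiJ clean air. C57BL/6J BD libraries had 23.1 to 32.6 CPM (median 25.8), against 11.2, 10.8, 9.46, 7.43 and 9.59 CPM in C57BL/6J clean air. Groups of BD and clean air were apart in each strain, and the range of BD-exposed C57BL/6J overlapped that of clean-air CAST/EiJ. The fold was 1.80 in CAST/EiJ (log2 0.85, SE 0.12, adjusted p = 0.000222) and 2.71 in C57BL/6J (log2 1.44, SE 0.13, adjusted p = 5.71e-07, the 2nd smallest p of all genes there). Nqo1 started 2.11-fold higher in clean-air CAST/EiJ than in clean-air C57BL/6J (20.5 ± 3.34 CPM, n = 7, and 9.69 ± 1.46 CPM, n = 5; adjusted p = 1.19e-07). The step from clean air to BD was 16.4 CPM in CAST/EiJ (SE 2.38) and 16.6 CPM in C57BL/6J (SE 1.58).

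Hmox1 (haem oxygenase 1) had 73.7, 83.9, 85.4, 40.7 and 91.4 CPM in CAST/EiJ BD, against 37.0 to 58.7 CPM (median 43.1) in CAST/EiJ clean air. C57BL/6J BD libraries had 28.0 to 41.6 CPM (median 31.7), against 30.0, 20.4, 22.2, 20.1 and 23.4 CPM in C57BL/6J clean air. Groups overlapped in both strains. In CAST/EiJ 4 BD libraries lay above all clean-air libraries and replicate 4 lay among them, and in C57BL/6J 4 of 6 BD libraries lay above all clean-air libraries. The fold was 1.68 in CAST/EiJ (log2 0.75, SE 0.15, adjusted p = 0.00989) and 1.40 in C57BL/6J (log2 0.48, SE 0.16, adjusted p = 0.0603). The C57BL/6J value passed without C57BL/6J clean-air replicate 1 (log2 0.60, adjusted p = 0.0227), without CAST/EiJ BD replicate 4 (0.0125), without CAST/EiJ clean-air replicate 1 (0.0481), with DESeq2 (0.0319), with the compared groups alone (0.0182), without title numbers over 100 (0.0289) and with that split as a covariate (0.0136). The CAST/EiJ value missed with the compared groups alone (0.0511).

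Osgin1, the growth inhibitor, had 27.9, 26.5, 35.4, 22.7 and 31.4 CPM in CAST/EiJ BD, against 7.42 to 13.7 CPM (median 9.55) in CAST/EiJ clean air. C57BL/6J BD libraries had 21.4 to 28.6 CPM (median 25.8), against 8.87, 13.6, 20.2, 14.8 and 12.7 CPM in C57BL/6J clean air. No BD library overlapped clean air in either strain, although C57BL/6J clean-air replicate 3 (20.2 CPM) came close to the lowest BD library (21.4 CPM). The fold was 2.90 in CAST/EiJ (log2 1.53, SE 0.15, adjusted p = 2.34e-06) and 1.82 in C57BL/6J (log2 0.86, SE 0.16, adjusted p = 0.00179). Under BD no strain difference was called (28.8 ± 4.85 CPM, n = 5, and 25.3 ± 2.51 CPM, n = 6; log2 0.19, interval -0.14 to 0.51, adjusted p = 0.357). In clean air CAST/EiJ was lower (9.97 ± 2.03 CPM, n = 7, and 14.04 ± 4.10 CPM, n = 5; log2 -0.49, adjusted p = 0.0107), and that call was lost without C57BL/6J clean-air replicate 3 (0.0696), without title numbers over 100 (0.0678), with that split as a covariate (0.200), with limma-voom (0.0548) and with the squamous covariate (0.0580).

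The test of whether the BD ratio differed between strains called 1 of the 8 genes, near the 9.44% of all genes called in either direction. That gene was Nqo1, whose BD ratio in CAST/EiJ was 0.664 of that in C57BL/6J (log2 -0.59, SE 0.17, adjusted p = 0.0368). The call was lost without C57BL/6J clean-air replicate 3, 4 or 5, C57BL/6J BD replicate 4, 5 or 6, CAST/EiJ BD replicate 1 or 4, or CAST/EiJ clean-air replicate 1, 2 or 4 (adjusted p = 0.0515 to 0.0775). It was also lost without title numbers over 100 (log2 -0.50, adjusted p = 0.195) and with them as a covariate (log2 -0.48, adjusted p = 0.150). For the other 7 genes the ratio was above 1 in this fit, and none was called. Slc7a11 had a ratio of 2.17 (log2 1.12, interval 0.22 to 2.01, adjusted p = 0.0933) and Osgin1 1.59 (log2 0.67, interval 0.21 to 1.13, adjusted p = 0.0566). Both passed with DESeq2 (0.0434 for Slc7a11, 0.0302 for Osgin1). Slc7a11 also passed without CAST/EiJ clean-air replicate 6 (0.0374) or C57BL/6J BD replicate 6 (0.0323). Osgin1 also passed without CAST/EiJ clean-air replicate 7 (0.0271), CAST/EiJ BD replicate 4 (0.0482) or C57BL/6J clean-air replicate 1 (0.0107), and with the squamous covariate (0.0463). Over the 31 alternatives the log2 difference fell as low as 0.55 for Slc7a11 and 0.47 for Osgin1, with adjusted p up to 0.645 and 0.279. Txnrd1 had a ratio of 1.25 (log2 0.32, adjusted p = 0.140), Hmox1 1.20, Gclm 1.14, Gclc 1.12 and Srxn1 1.05. In single alternatives the log2 difference fell to 0.09 for Txnrd1 and below 0 for Gclm (-0.13) and Srxn1 (-0.03), with none called.

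**Figure D3:**
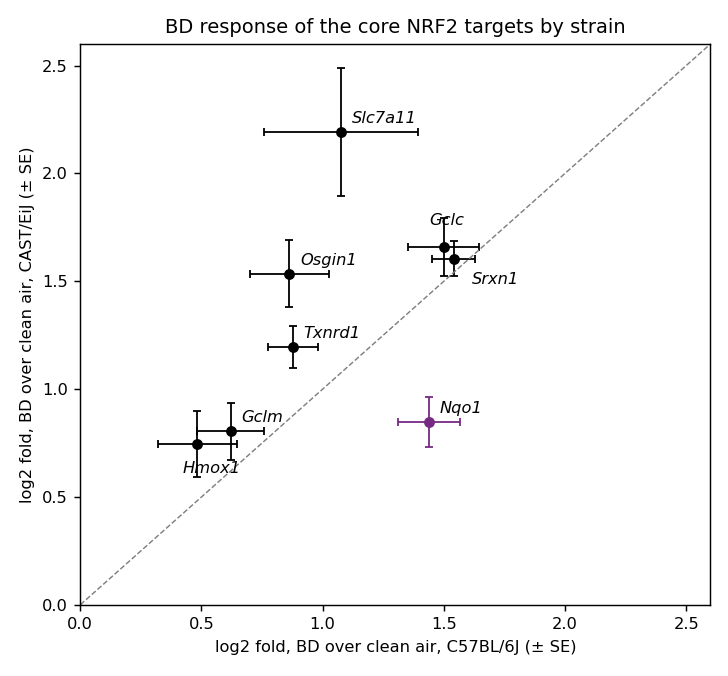
Log2 fold of each gene, BD over clean air, in CAST/EiJ (vertical axis) against C57BL/6J (horizontal axis), with bars of 1 SE and a dashed line where the folds are equal. Nqo1 (log2 0.85 in CAST/EiJ, 1.44 in C57BL/6J) is the gene below the line, and Slc7a11 and Osgin1 are farthest above it.

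Strain differences in level were called for 6 of 8 genes under BD, where 42.7% of all genes differed, and for 6 of 8 in clean air, where 60.4% differed. Srxn1, Nqo1 and Hmox1 were higher in CAST/EiJ in both exposures, and Gclm and Txnrd1 were lower in both. Hmox1 was 2.30-fold higher under BD (75.0 ± 20.2 CPM, n = 5, and 32.6 ± 4.94 CPM, n = 6; adjusted p = 1.64e-06) and 1.92-fold higher in clean air (44.7 ± 6.98 CPM, n = 7, and 23.2 ± 4.02 CPM, n = 5; adjusted p = 2.82e-05). Srxn1 was 1.48-fold higher under BD (102.1 ± 17.2 CPM, n = 5, and 68.9 ± 5.49 CPM, n = 6; adjusted p = 7.39e-06) and 1.42-fold higher in clean air (33.6 ± 1.59 CPM, n = 7, and 23.6 ± 2.01 CPM, n = 5; adjusted p = 2.49e-05). Slc7a11 differed under BD, 2.43-fold higher in CAST/EiJ (46.5 ± 18.5 CPM, n = 5, and 19.2 ± 9.11 CPM, n = 6; adjusted p = 0.00166), but a difference was not called in clean air (10.2 ± 3.52 CPM, n = 7, and 8.97 ± 2.99 CPM, n = 5; log2 0.16, interval -0.48 to 0.80, adjusted p = 0.668). Nqo1 was 1.40-fold higher under BD (36.9 ± 4.51 CPM, n = 5, and 26.3 ± 3.53 CPM, n = 6; adjusted p = 0.00208). Gclm was at 0.669 of the C57BL/6J level under BD (29.8 ± 6.83 CPM, n = 5, and 44.5 ± 3.13 CPM, n = 6; adjusted p = 0.00134) and at 0.588 in clean air (17.004 ± 3.64 CPM, n = 7, and 28.9 ± 1.30 CPM, n = 5; adjusted p = 3.05e-05). Reads of both strains were aligned to mm9, which is C57BL/6J sequence, and the part of unequal alignment in these strain differences was not tested.

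From highest to lowest mean, CAST/EiJ BD came first for 6 genes, and C57BL/6J BD came first for Gclm and Txnrd1. Every neighbouring pair of groups differed for Srxn1, Txnrd1 and Nqo1. For Gclc and Osgin1 the BD groups at the top were not told apart, and for Gclc and Slc7a11 neither were the clean-air groups at the bottom. Nor were BD-exposed CAST/EiJ and clean-air C57BL/6J for Gclm, or the C57BL/6J groups for Hmox1. Hmox1 was the gene whose order went by strain: clean-air CAST/EiJ stood above BD-exposed C57BL/6J (1.37-fold, adjusted p = 0.0122). Nqo1 had BD-exposed C57BL/6J above clean-air CAST/EiJ (the clean-air CAST/EiJ level was 0.780 of it, adjusted p = 0.00900). Within groups, CAST/EiJ BD replicate 6 was the highest library of its group for 7 of 8 genes and replicate 4 the lowest for 6 of 8. C57BL/6J clean-air replicate 1, the one with a title number over 100, was highest in its group for 6 of 8.

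The library with title number 8, labelled CAST/EiJ BD, had 606 CPM of Gclc, 49.0 of Gclm, 29.3 of Slc7a11, 68.0 of Srxn1, 181 of Txnrd1, 29.6 of Nqo1, 32.6 of Hmox1 and 23.8 of Osgin1. All 8 values lay inside the range of the C57BL/6J BD libraries, and 4 of 8 lay inside the range of the remaining CAST/EiJ libraries under BD. Gclm was above that CAST/EiJ range, and Srxn1, Nqo1 and Hmox1 were below it. With the library kept under its label, all 8 genes were still called in CAST/EiJ, with log2 folds of 1.63 for Gclc, 0.95 for Gclm, 2.10 for Slc7a11, 1.52 for Srxn1, 1.25 for Txnrd1, 0.80 for Nqo1, 0.60 for Hmox1 and 1.49 for Osgin1. Without title numbers over 100, which leaves 2 clean-air CAST/EiJ libraries, Gclm was not called in CAST/EiJ (log2 0.50, adjusted p = 0.120). The other genes were all called in CAST/EiJ. Log2 folds were 1.62 for Gclc, 1.87 for Slc7a11, 1.62 for Srxn1, 1.00 for Txnrd1, 1.00 for Nqo1, 0.97 for Hmox1 and 1.46 for Osgin1. In C57BL/6J they were 1.56 for Gclc, 0.63 for Gclm, 1.32 for Slc7a11, 1.57 for Srxn1, 0.91 for Txnrd1, 1.503 for Nqo1, 0.60 for Hmox1 and 0.73 for Osgin1, all called.

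The lists around the core genes were chosen with earlier results of these data known and are described by counts. Apart from Nfe2l2, Keap1 and Bach1, genes were named from them for a called fold in at least 1 strain. For a gene named in 1 strain only, that choice partly sets the direction of a difference of BD ratios. Over all genes tested, 3.37% were called lower under BD in CAST/EiJ and 6.49% in C57BL/6J, beside the 3.86% and 4.2% called higher. Of 10 regulators of NRF2, 3 rose in each strain and none fell. Mafg, a small MAF partner of NRF2, rose 1.53-fold in CAST/EiJ (adjusted p = 0.00134) and 1.34-fold in C57BL/6J (adjusted p = 0.00973). Sqstm1 (p62), which binds KEAP1 and is itself an NRF2 target, rose 1.21-fold in CAST/EiJ (adjusted p = 0.0296) and 1.35-fold in C57BL/6J (adjusted p = 0.000912). Bach1, a repressor that competes at antioxidant elements, rose 1.17-fold in CAST/EiJ (adjusted p = 0.0258), and Keap1 rose 1.27-fold in C57BL/6J (adjusted p = 0.0166). The mRNA of NRF2 itself, Nfe2l2, was at 163 ± 8.46 CPM in CAST/EiJ BD (n = 5) and 177 ± 19.9 CPM in CAST/EiJ clean air (n = 7), with a log2 fold of -0.12 (SE 0.08, adjusted p = 0.311). It was at 148 ± 7.89 CPM in C57BL/6J BD (n = 6) and 148 ± 19.4 CPM in C57BL/6J clean air (n = 5), with an SE of 0.08 on the log2 fold and an adjusted p of 0.988. The CAST/EiJ call of Sqstm1 was lost without CAST/EiJ BD replicate 3 or 6 or clean-air replicate 2 or 4 and with the compared groups alone (adjusted p = 0.0569 to 0.101). That of Bach1 was lost without CAST/EiJ BD replicate 3 or 6, with the compared groups alone and with the title-number covariate (0.0530 to 0.123), and that of Mafg without title numbers over 100 (0.0719). The Keap1 call in C57BL/6J was lost without C57BL/6J clean-air replicate 2 (0.0528).

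Of 16 other genes of glutathione supply and breakdown, 2 rose in CAST/EiJ (3.86% of all genes) and 4 in C57BL/6J (4.2%), and none fell (3.37% and 6.49% of all genes). Gss, glutathione synthetase, rose 1.29-fold in CAST/EiJ (adjusted p = 0.00354) and 1.33-fold in C57BL/6J (adjusted p = 0.000455). Gsr, glutathione reductase, rose 1.38-fold in CAST/EiJ (adjusted p = 0.000579) and by log2 0.30 in C57BL/6J (adjusted p = 0.00874). The breakdown enzymes Ggt1 (gamma-glutamyltransferase, 2.01-fold, adjusted p = 0.000402) and Oplah (5-oxoprolinase, 1.36-fold, adjusted p = 0.00146) rose in C57BL/6J. Their BD ratios differed between strains, by log2 -0.82 for Ggt1 (adjusted p = 0.0243) and -0.38 for Oplah (adjusted p = 0.0396). The first was lost in 1 of 31 alternatives (0.0668) and the second in 16 of 31 (0.0520 to 0.371). Ggt1 was at 12.5 ± 2.37 CPM in CAST/EiJ BD (n = 5) and 11.1 ± 1.60 CPM in CAST/EiJ clean air (n = 7), and at 4.60 ± 0.717 CPM in C57BL/6J BD (n = 6) and 2.32 ± 0.475 CPM in C57BL/6J clean air (n = 5).

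Of 16 partners of thioredoxin and glutaredoxin, none rose and 1 fell in CAST/EiJ, and 3 rose and none fell in C57BL/6J. The CAST/EiJ counts are near the background of 3.86% higher and 3.37% lower, and in C57BL/6J 4.2% of all genes rose and 6.49% fell. In C57BL/6J these were Prdx6, a peroxiredoxin that uses glutathione (1.68-fold, adjusted p = 0.000394), Txn1, the cytosolic thioredoxin that Txnrd1 reduces (1.30-fold, adjusted p = 0.0137), and Prdx3, the mitochondrial peroxiredoxin (1.22-fold, adjusted p = 0.0450). The gene that fell in CAST/EiJ was Nxn, nucleoredoxin (0.786-fold, adjusted p = 0.0366). The call of Prdx3 was lost in 17 of 32 alternatives (0.0501 to 0.147) and that of Nxn in 13 of 32 (0.0527 to 0.681), and that of Txn1 without C57BL/6J clean-air replicate 3 (0.0574). Txn1 was at 176 ± 13.8 CPM in CAST/EiJ BD (n = 5) and 169 ± 23.2 CPM in CAST/EiJ clean air (n = 7). Prdx6 has a near-identical copy in the genome, and its counts are uncertain to that extent.

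**Figure D4:**
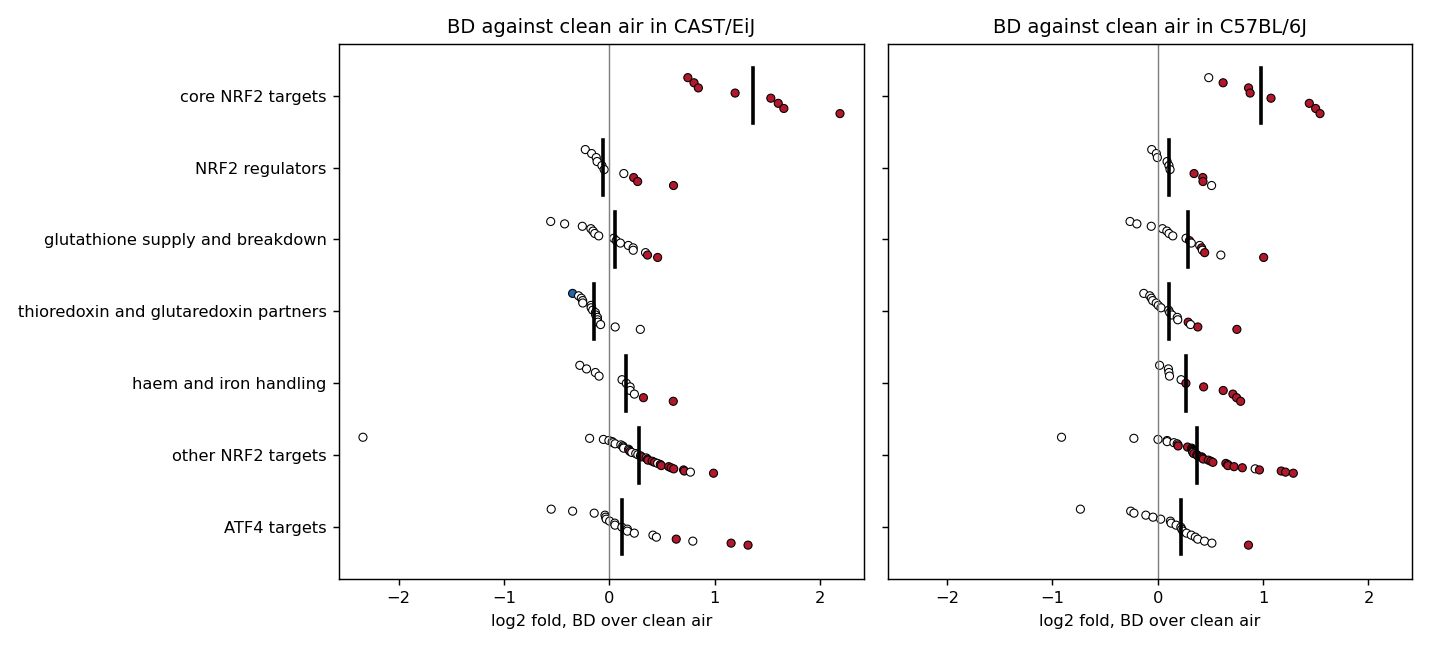
Log2 fold, BD over clean air, of every tested gene of 7 lists in CAST/EiJ (left) and C57BL/6J (right). Red points were called higher, blue lower, open points not called, and the vertical bar is the list's median. The median of the core targets (1.36 in CAST/EiJ and 0.98 in C57BL/6J) lies to the right of the other medians in both panels.

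Of 11 tested genes of haem and iron handling, 2 rose in CAST/EiJ (3.86% of all genes) and 6 in C57BL/6J (4.2%), and none fell (3.37% and 6.49% of all genes). Slc40a1 (ferroportin, the iron exporter) rose 1.52-fold in CAST/EiJ (adjusted p = 0.0315) and 1.64-fold in C57BL/6J (adjusted p = 0.00976). Slc48a1, a haem transporter, rose 1.25-fold in CAST/EiJ (adjusted p = 0.0173) and by log2 0.27 in C57BL/6J (adjusted p = 0.0266). Tfrc, the transferrin receptor, rose 1.72-fold in C57BL/6J (adjusted p = 0.00114), and Alas1, the first enzyme of haem synthesis, 1.68-fold (adjusted p = 0.00809). The Alas1 ratio differed between strains by log2 -1.03 (adjusted p = 0.0180), a call lost without title numbers over 100 (log2 -0.76, adjusted p = 0.202) and with them as a covariate (log2 -0.84, adjusted p = 0.0913). Alas1 was at 348 ± 99.4 CPM in CAST/EiJ BD (n = 5) and 423 ± 90.3 CPM in CAST/EiJ clean air (n = 7), and at 527 ± 80.2 CPM in C57BL/6J BD (n = 6) and 314 ± 32.2 CPM in C57BL/6J clean air (n = 5). The CAST/EiJ call of Slc40a1 was lost in 9 of 32 alternatives (adjusted p = 0.0552 to 0.377), among them those without CAST/EiJ BD replicate 1 or 6 or CAST/EiJ clean-air replicate 3, 4 or 5. That of Slc48a1 was lost with the compared groups alone (0.0727), and its C57BL/6J call was lost in 4 of 32 alternatives (0.0501 to 0.0748).

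Of 34 other NRF2 targets, 14 rose in CAST/EiJ (3.86% of all genes) and 23 in C57BL/6J (4.2%), and none fell (3.37% and 6.49% of all genes). Their median log2 fold was 0.28 in CAST/EiJ and 0.37 in C57BL/6J, under the medians of the 8 core genes. In CAST/EiJ the largest called folds were Akr1b8 (an aldo-keto reductase, 1.99-fold, adjusted p = 1.12e-05), Gstm1 (1.64-fold, adjusted p = 8.41e-07) and Aox1 (aldehyde oxidase, 1.63-fold, adjusted p = 3.43e-05). In C57BL/6J they were Cbr3 (a carbonyl reductase, 2.44-fold, adjusted p = 1.66e-05), Gsta3 (2.32-fold, adjusted p = 5.36e-06) and Gsta2 (2.25-fold, adjusted p = 0.0198). The Gst genes encode glutathione transferases and have close paralogs, so their counts are uncertain. The Gsta2 call was lost with number 8 kept and without C57BL/6J clean-air replicate 2, 3 or 4 (0.0521 to 0.0755). Cbr3 was at 13.2 ± 0.446 CPM in CAST/EiJ BD (n = 5) and 11.6 ± 2.70 CPM in CAST/EiJ clean air (n = 7), and at 26.9 ± 3.88 CPM in C57BL/6J BD (n = 6) and 10.97 ± 2.21 CPM in C57BL/6J clean air (n = 5). Its ratio differed by log2 -1.10 (adjusted p = 0.00906), a call lost without title numbers over 100 (log2 -0.73, adjusted p = 0.0779). In this list the BD ratio was called smaller in CAST/EiJ for 5 genes, against 3.82% of all genes, and larger for 1, against 5.62%. That of Gsta3, among the 5, was lost in 11 of 31 alternatives (0.0507 to 0.0913).

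Slc7a11 is also a target of ATF4, the transcription factor of amino acid and unfolded-protein stress. Of 19 other ATF4 targets, 3 rose in CAST/EiJ (3.86% of all genes) and 1 in C57BL/6J, near the 4.2% of all genes that rose there, and none fell (3.37% and 6.49% of all genes). Chac1, which degrades glutathione, rose 2.49-fold in CAST/EiJ (4.96 ± 1.06 CPM, n = 5, and 1.97 ± 0.226 CPM, n = 7; adjusted p = 0.000128) and 1.82-fold in C57BL/6J (4.14 ± 1.16 CPM, n = 6, and 2.30 ± 0.366 CPM, n = 5; adjusted p = 0.00467). Mthfd2, a mitochondrial folate enzyme, rose 2.23-fold in CAST/EiJ (adjusted p = 0.000968), and Slc7a1, a cationic amino acid transporter, rose 1.55-fold there (adjusted p = 0.00266). The BD ratio of both was larger in CAST/EiJ, by log2 0.84 for Mthfd2 (adjusted p = 0.0463) and 0.89 for Slc7a1 (adjusted p = 0.00778). The call of this difference was lost in 23 of 31 alternatives for Mthfd2 (0.0508 to 0.265) and in 1 of 31 for Slc7a1 (0.0722). The rise of Slc7a1 in CAST/EiJ missed without title numbers over 100 (0.107).

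Likeness to the members' median profile was measured over the 4 group means as the mean absolute difference in centred log2 CPM. The 8 genes themselves ranged from 0.063 for Gclc to 0.449 for Gclm, and the median of 14507 candidates was 0.732. The 10 nearest genes were Myh2, Chac1, Il1f9, Tsku, Eid3, Lce3e, Kif2c, Tbx15, Mt1 and Gsta3, at distances of 0.162 to 0.300. Because the members' profile was high in both BD groups, genes like it were chosen partly for being higher under BD. Their rise is therefore no separate finding. Of the 10 genes, Chac1, Tsku, Eid3, Mt1 and Gsta3 were called higher under BD in both strains. Eid3 rose 3.50-fold in CAST/EiJ (adjusted p = 0.000128) and 1.94-fold in C57BL/6J (adjusted p = 0.0155), and Tsku rose 2.23-fold in CAST/EiJ (adjusted p = 4.66e-06) and 2.14-fold in C57BL/6J (adjusted p = 1.67e-05). Mt1, a metallothionein, rose 1.58-fold in CAST/EiJ (adjusted p = 0.0240) and 2.05-fold in C57BL/6J (adjusted p = 0.000721), with the CAST/EiJ call lost without CAST/EiJ BD replicate 1 or 6 and with the compared groups alone (0.0507 to 0.0676). Gsta3 in CAST/EiJ missed without title numbers over 100 and with them as a covariate (0.0887 and 0.0795). Myh2, a muscle myosin and the nearest by profile, was called in neither strain (adjusted p = 0.994 in CAST/EiJ and 0.446 in C57BL/6J).

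Markers of other cells were read beside these results, and their part in them was not tested. Of 4 club cell markers, Scgb1a1 (0.640-fold, adjusted p = 0.00912), Scgb3a2 (0.351-fold, adjusted p = 0.00854) and Cyp2f2 (0.732-fold, adjusted p = 0.0291) fell in CAST/EiJ, and Aldh1a1 did not pass (adjusted p = 0.285). Their sum ranged from 5212 to 8697 CPM in CAST/EiJ BD, against 9249 to 12631 CPM in CAST/EiJ clean air, with no overlap. In C57BL/6J it ranged from 9008 to 11714 CPM under BD, against 9786 to 12432 CPM in clean air, and Aldh1a1 was the marker called there (1.67-fold, adjusted p = 0.00139). Of 10 listed alveolar macrophage markers 8 were in the table, and each was above 0 in some library of every group. None of the 8 passed in CAST/EiJ, where the smallest adjusted p was 0.0599 (Itgax, 1.31-fold), and their sum ranged from 2296 to 4925 CPM under BD, against 1909 to 4141 CPM in clean air, overlapping widely. In C57BL/6J 1 of the 8 was called, Marco, a scavenger receptor (3.09-fold, adjusted p = 1.66e-05). The sum there ranged from 914 to 1139 CPM under BD, against 750.0 to 939.9 CPM in clean air, overlapping only from 914 to 939.9 CPM.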

How the data were processed

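RNA-seq was done on mouse lung. The authors deposited whole-number read counts per gene in 1 table, and GSNAP and mm9 are named in the submitters' processing notes; versions, the counting tool and strand setting are not given in the sources used here. Of 23893 rows, 21 lacked a value in some library and were left out. The other rows were filtered with filterByExpr (17377 genes kept), TMM-scaled and fitted with edgeR 4.0.16 in R 4.3.3 (glmQLFit, robust; quasi-likelihood test; 4 group means, 23 libraries). Benjamini-Hochberg adjustment covered all tested genes. DESeq2 1.42.0 and limma 3.58.1 (voom) were alternatives. Fits were also run on counts simulated from a common mean per gene, with folds added to a BD group. Such counts lack the strain differences and title-number split of these libraries, so the run cannot vouch for the fits here. Libraries were the replicates; the labels do not say that each came from another mouse, so p-values measure the spread between libraries, which may be technical. Over 276 pairs of libraries, chi-square divided by its degrees of freedom was at least 5.13, so no pair looked like repeats of 1 library. Depth ran between 10601756 and 50001571 counts, and intervals cover the spread between libraries.

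The 8 genes and the lists were chosen with earlier results of these data known. Named from each list were up to 3 called genes per strain with the largest log2 fold and a mean of at least 1 CPM, Nfe2l2, Keap1 and Bach1, and the 10 genes most like the members' median profile. The small RNA table was not used. Log2 CPM for profiles used a prior count of 2.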

Additional observations from a re-analysis of the deposited data

Results flagged for a closer look

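In 10 of 136 groups of 5 to 7 libraries tested, the highest or lowest library stood apart by Dixon's criterion, where chance flags about 1 in 20 groups (6.8 of 136). Slc7a11 was at 36.7 CPM in C57BL/6J BD replicate 6 (others 12.5 to 21.1) and at 14.2 CPM in C57BL/6J clean-air replicate 1 (others 6.60 to 8.08). Of the listed genes, Chac1 was at 6.80 CPM in CAST/EiJ BD replicate 6 and Keap1 at 46.8 CPM in CAST/EiJ BD replicate 4. In CAST/EiJ clean air, Gss was at 31.7 CPM in replicate 1, Alas1 at 229 CPM in replicate 6 (others 408 to 501) and Gsta2 at 4.53 CPM in replicate 7. In C57BL/6J, Slc40a1 was at 17.5 CPM in BD replicate 6, Slc48a1 at 95.3 CPM in clean-air replicate 5 and Gsta2 at 5.85 CPM in clean-air replicate 1.

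The BD ratio differed between strains (edgeR, CAST/EiJ over C57BL/6J, adjusted p under 0.05) for Nqo1, by log2 -0.59. Among listed genes the ratio was larger in CAST/EiJ for Mthfd2 (0.84) and Slc7a1 (0.89). It was smaller there for Ggt1 (-0.82), Oplah (-0.38), Alas1 (-1.03), Cbr3 (-1.10), Gsta3 (-0.63) and Prdx3 (-0.42). Over all genes tested 9.44% were called in either direction. Each of these listed genes had been picked for its called fold in the strain with the larger ratio. That choice partly sets the direction of their differences, which are no separate finding. The call was lost in 23 of 31 alternatives for Mthfd2, 19 of 31 for Prdx3 (0.0542 to 0.189), 16 of 31 for Oplah, 13 of 31 for Nqo1, 11 of 31 for Gsta3 (0.0507 to 0.0913), 2 of 31 for Alas1, and 1 of 31 each for Slc7a1, Ggt1 and Cbr3.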

How the results depend on the processing

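Of 1272 alternative values of the 8 genes' 40 comparisons, 1226 kept their side of the threshold, 31 lost the call, 15 gained it and none of the called values changed sign. Some uncalled values did change sign: the difference of BD ratios for Gclm and Srxn1 and the clean-air strain difference of Slc7a11. The squamous covariate, the mean log2 CPM of these markers in each library, was chosen after seeing the data. When single libraries were left out, the number of the 8 genes called ran from 8 to 8 in CAST/EiJ and from 6 to 8 in C57BL/6J. For strain under BD and in clean air it ran from 5 to 6. In CAST/EiJ it was 7 with the compared groups alone, 7 without title numbers over 100 and 8 with them as a covariate. For the difference of BD ratios it ran from 0 to 2, and was 3 with DESeq2, 2 with the squamous covariate and 0 without title numbers over 100 or with them as a covariate (1 as reported). Counts over all genes moved far more. In CAST/EiJ they were 1255 as reported, 2390 with number 8 kept, 2261 with DESeq2, 159 with the compared groups alone, 627 without title numbers over 100, 275 with that covariate, 1920 with the squamous covariate and 354 to 3007 with single libraries left out. In C57BL/6J they were 1857, 3016 without title numbers over 100, 3368 with that covariate and 977 to 2309 with single libraries left out. For the difference of ratios they were 1641, 1041 with no filter, 320 without title numbers over 100, 84 with the covariate and 372 to 3392 with single libraries left out. Genes called over the pathway lists in CAST/EiJ were 25, and 14 with the compared groups alone. For the difference of ratios they were 14, 7 with no filter, 23 with DESeq2, 8 with limma-voom, 2 without title numbers over 100, 3 with the covariate and 4 to 27 with single libraries left out. The antioxidant core was in 3 promoter windows and its stricter form TGACTCAGC in 0. The cause of these shifts was not tested. No paired analysis was possible because the title numbers are not shared between the RNA-seq groups, and replicate numbers only name libraries.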
